A study of Mus musculus with 6 samples.

Results

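The nuclear genes for subunits of the respiratory chain and ATP synthase were examined in the retinas of adult mice lacking Trim9, an E3 ubiquitin ligase of the tripartite motif family. They were chosen by symbol alone, as genes beginning with Nduf followed by a, b, c, s or v and a digit, Sdha to Sdhd, genes beginning with Uqcr, Cyc1, Cox4 to Cox8 genes with a letter after the digit, and genes beginning with Atp5. In all, 82 of the 18193 genes named by the arrays met the rule, and 165 of the 45037 probe sets compared named them. A probe set is a group of short oligonucleotides that read a transcript together. Complex I had 35 members, complex II 4, complex III 9, complex IV 17 and complex V 17. Each gene was read by its brightest probe set over the 6 arrays.

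There were 3 wild type (WT) and 3 Trim9 KO retina samples, whose amplified, biotin-labelled RNA was read on Affymetrix mouse arrays, with 1 array per sample. The KO mice lacked exon 1 of Trim9, removed by Cre recombinase after a cross to mice carrying Cre under the CMV promoter, which is active in most tissues, so the loss was not limited to 1 retinal cell type. The mice were littermates grown to maturity. Their age was given no more closely than adult, and it was not given whether WT animals carried Cre. A note on the handling of embryos stands beside labels of adult retina, and the tissue label was followed here. The p-values measure the spread between these samples.

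The respiratory chain passes electrons from NADH and succinate to oxygen and pumps protons out of the mitochondrial matrix, and ATP synthase lets the protons back in to make ATP. Complex I oxidizes NADH, complex II oxidizes succinate and belongs to the TCA cycle as well, complex III passes electrons from ubiquinol to cytochrome c, complex IV reduces oxygen, and complex V is ATP synthase. Photoreceptors pack mitochondria into their inner segments and rank among the cells with the highest oxygen use, and the subunits made in the nucleus must be matched by a few made from mitochondrial DNA. Among the probe sets naming 1 gene, none named a mitochondrially encoded one, sought by symbols beginning with mt-. Probe sets naming no gene or several were not searched for them.

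Many of these genes are known as targets of the transcription factors NRF1 and GABPA, so their promoters were searched for short motifs, read on both strands in the 250 bases before and the 50 after the start. The RefSeq promoter table (GRCm38.p6) held windows for 66 of the 82 members. The NRF1 letters GCGCANGCG, with N for any base, were found in 18 of these members (27.3%, against 7.03% of 27025 genes with a window). The ETS letters CCGGAAG, as bound by GABPA, were in 17 (25.8%, against 9.93%), the YY1 letters AAGATGGC in 9 (13.6%, against 3.19%) and the letters TCAAGGTCA, as bound by oestrogen-related receptors, in 2 (3.03%, against 0.466%). At least 1 of the 4 motifs was held by 37 members (56.1%, against 18.2%). By complex, NRF1 letters were in 6 of 31 matched genes of complex I, 2 of 3 of complex II, 2 of 5 of complex III, 1 of 12 of complex IV and 7 of 15 of complex V. These matches describe the sequence and do not show that a factor was bound. The stretches shown are the 200 bases before the start of the gene, in each complex, with the most kinds of motif and then the most matches there, among stretches that overlapped no annotated gene. No complex II stretch met this. All lie on the minus strand, Ndufb4 (complex I) at chr16:37654369-37654568, Uqcr11 (complex III) at chr10:80406822-80407021, Cox6a1 (complex IV) at chr5:115348959-115349158 and Atp5g2 (complex V) at chr15:102671048-102671247. Capitals mark the motifs. They are NRF1 letters in Ndufb4 and Atp5g2, ETS letters in Uqcr11, and in Cox6a1 NRF1 letters at 2 places followed by reversed ETS letters. In the first Cox6a1 match and in Atp5g2 the NRF1 letters overlap on both strands, and Uqcr11 has a further NRF1 match across its start that is not shown.
Ndufb4: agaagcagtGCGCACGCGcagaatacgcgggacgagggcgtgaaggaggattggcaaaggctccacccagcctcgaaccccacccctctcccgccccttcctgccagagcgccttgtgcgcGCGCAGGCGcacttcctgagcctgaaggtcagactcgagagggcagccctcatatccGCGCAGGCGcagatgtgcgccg
Uqcr11: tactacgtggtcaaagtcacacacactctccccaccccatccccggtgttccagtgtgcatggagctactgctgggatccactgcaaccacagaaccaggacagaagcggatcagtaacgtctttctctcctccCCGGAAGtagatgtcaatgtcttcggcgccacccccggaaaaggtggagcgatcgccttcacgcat
Cox6a1: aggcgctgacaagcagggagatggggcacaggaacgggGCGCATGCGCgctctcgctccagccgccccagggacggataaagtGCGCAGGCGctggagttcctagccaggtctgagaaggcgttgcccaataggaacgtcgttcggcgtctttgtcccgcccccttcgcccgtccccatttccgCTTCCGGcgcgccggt
Atp5g2: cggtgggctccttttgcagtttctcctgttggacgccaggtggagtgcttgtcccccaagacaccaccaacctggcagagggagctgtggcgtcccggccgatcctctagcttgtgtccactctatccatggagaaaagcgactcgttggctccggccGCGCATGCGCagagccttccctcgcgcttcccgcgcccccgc

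None of these 4 genes differed between genotypes at the threshold, and their groups overlapped. Ndufb4 had a log2 fold change, Trim9 KO over WT, of 0.71, Cox6a1 of 0.91, Uqcr11 of -1.57 (-0.06 without Trim9 KO replicate 1) and Atp5g2 of -1.92. Over the matched members the median log2 fold change was -0.02 for the 18 with NRF1 letters, of which 9 had a higher mean in Trim9 KO, and 0.52 for the 48 without, of which 32 did. With ETS letters it was 0.56 over 17 genes and without them 0.39 over 49. These medians are descriptions without a test.

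The arrays differed from each other in ways that did not follow genotype. Array medians ran from 218 to 808. The 3' to 5' ratio of the control probe sets for Actb, which rises as RNA shortens from its 5' end, was 20.2, 9.87 and 3.43 on the WT arrays and 2.83, 94.5 and 90.5 on the KO arrays. The same ratio for Gapdh was 310, 82.0 and 0.905 on WT and 134, 153 and 163 on KO. WT replicate 1 and Trim9 KO replicates 2 and 3 were highest for both genes. Trim9 KO replicate 1 was lowest for Actb but not for Gapdh. Trim9 KO replicate 1 stood apart, with correlations of 0.47 to 0.52 with the other arrays. Rod markers (18 of 20 listed were measured) summed to intensities of 1441000 to 3009000 on WT arrays and 1248000 to 4148000 on KO arrays, so that rod RNA was present on every array, as the retina label says. Trim9 itself had 4 probe sets with log2 fold changes of -0.77, -2.48, -1.81 and -0.58, and on the 2 with the lowest values the KO arrays all lay under the WT arrays (exact permutation p = 0.1, two-sided, the smallest that 3 against 3 arrays can give). Whether these probe sets lie in exon 1 was not known here.

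No subunit gene differed between genotypes at the threshold. The lowest adjusted p of a member was 0.999 (limma, Benjamini-Hochberg over all probe sets), and 0 of 45037 probe sets (0.0%) had an adjusted p under 0.05, with 1296 under 0.05 before adjustment. Of the 82 members, 51 had a higher mean in Trim9 KO and 31 a lower one. Their median log2 fold change was 0.41, against 0.14 over all genes, of which 55.2% had a higher mean. The precision was low, since the 95% intervals of the members' log2 fold changes reached 1.98 to 3.51 to either side (median 2.30). For 1 member, Uqcrfs1, the 3 KO arrays lay below the 3 WT arrays, as they did for 2.89% of all genes. For 0 members they lay above, against 5.35% of all genes. Uqcrfs1 was also the 1 member with an unadjusted p under 0.05, where 0.737% of all genes were at a lower mean and 1.82% at a higher mean. In RNA from whole retina, fewer cells of a type and less RNA per cell cannot be told apart.

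**Figure D1:**
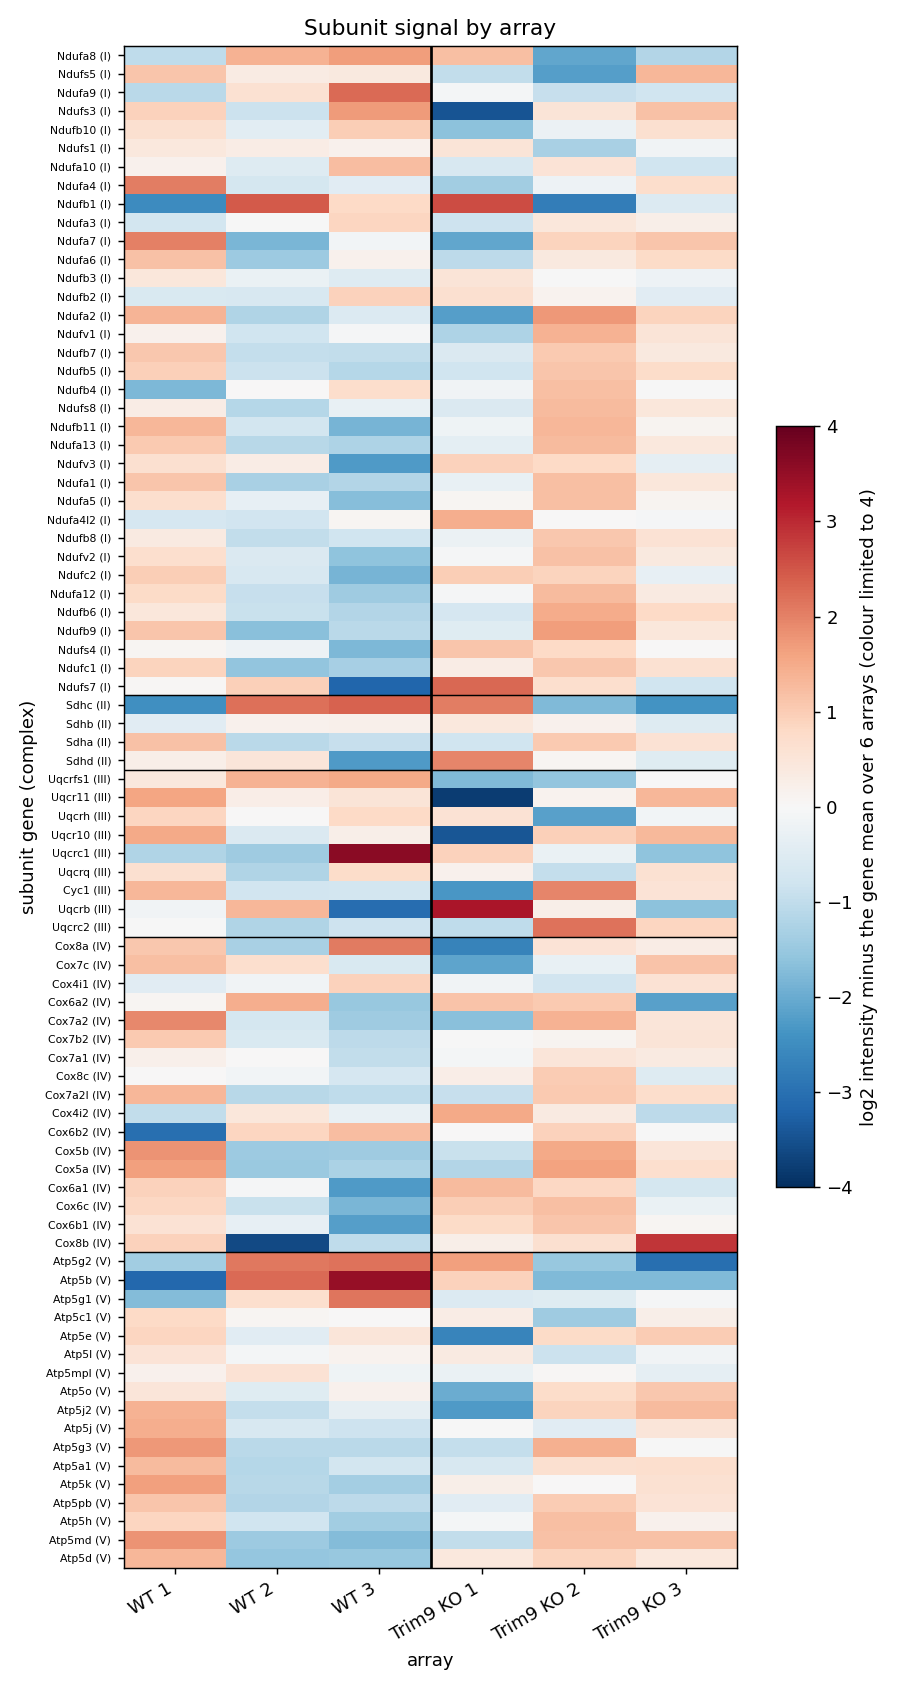
Log2 intensity of each of the 82 subunit genes minus its mean over the 6 arrays (colour), with arrays in columns and genes in rows, grouped by complex and ordered by log2 fold change within it. The colours change from array to array within a genotype, with WT replicate 1 and Trim9 KO replicate 2 the highest array for 24 and 22 genes.

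On average, the members varied between arrays in a way that crossed the genotypes. Averaged over the 82 genes, the deviation from each gene's mean on the log2 scale was 0.44, -0.38 and -0.34 on the WT arrays and -0.26, 0.39 and 0.14 on the KO arrays. WT replicate 1 thus lay with Trim9 KO replicates 2 and 3, and the genotypes overlapped. After quantile normalization the values were 0.16, -0.20 and 0.06 on WT and -0.30, 0.12 and 0.16 on KO, so that WT replicate 3 changed sign and the genotypes still overlapped. WT replicate 1 was the highest array for 24 members, Trim9 KO replicate 2 for 22, WT replicate 3 for 17, Trim9 KO replicate 1 for 13, Trim9 KO replicate 3 for 4 and WT replicate 2 for 2. WT replicate 3 was the lowest for 26. The members were bright genes, 79 of them brighter than the median probe set, and 566 other genes at least as bright as the median member had a like profile (0.60, -0.32 and -0.96 on WT, and -0.07, 0.48 and 0.27 on KO). This likeness was lost after quantile normalization, where the bright genes were at 0.06, 0.09 and -0.43 on WT and 0.10, 0.07 and 0.10 on KO. WT replicate 3 was the lowest array for 31.7% of the members and 59.7% of the bright genes, and the highest for 20.7% and 2.12%. Of these other bright genes 73.7% had a higher mean in Trim9 KO, with a median of 0.55. Rod markers ran the other way, at -1.01, 0.70 and 0.73 on WT and 1.01, -0.26 and -1.18 on KO. Whether brightness, the 3' to 5' ratio or rod RNA had a part in the members' profile was not tested.

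**Figure D2:**
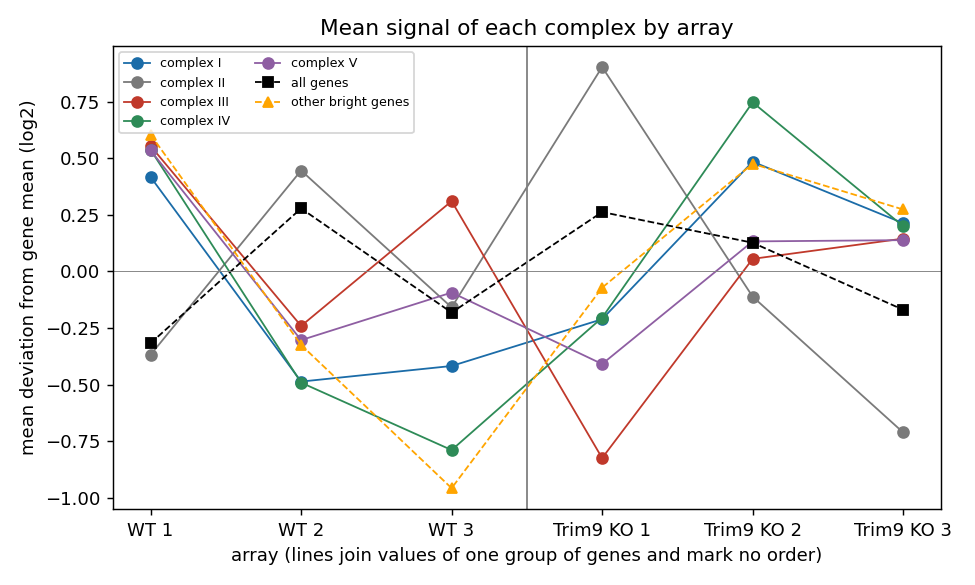
Mean deviation from the gene mean (log2, y axis) on each array (x axis) for complexes I to V, for all genes (black squares) and for the 566 other genes at least as bright as the median member (orange triangles). Complexes I, III, IV and V are high on WT replicate 1 (0.42 to 0.55), whereas complex II is low there (-0.37) and highest on Trim9 KO replicate 1 (0.90).

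Complex I had a median log2 fold change of 0.70, with 24 of its 35 genes at a higher mean in Trim9 KO and 11 at a lower one. Leaving out an array gave medians of 0.28 (without WT replicate 3) to 1.01 (without WT replicate 1). Its highest were Ndufs7, a core subunit that carries the last iron-sulphur cluster before ubiquinone (1.45), the small accessory subunit Ndufc1 (1.32) and Ndufs4, an accessory subunit whose loss causes a Leigh-like disease in mice (1.29). Ndufs7 had intensities of 130400, 240300 and 13880 on the WT arrays and 613400, 200600 and 71710 on the KO arrays. The span between WT replicates 2 and 3 was thus wider than the difference between genotypes (standard error 1.28). Ndufc1 was at 135600, 24630 and 29390 on WT and 89430, 153200 and 111500 on KO. Here WT replicate 1 lay among the KO arrays and the other WT arrays lay below them. Ndufs4 was at 5488, 4433 and 1462 on WT and 11140, 9012 and 5258 on KO. For Ndufs4 WT replicate 1 was the 1 WT array above the lowest KO array, and another of its 4 probe sets was at -1.83.

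At the lower end of complex I were 3 accessory subunits. Ndufa8 had intensities of 1509, 8088 and 9673 on WT and 7076, 713.7 and 1334 on KO (log2 fold change -1.37, standard error 1.18). Ndufs5 was at 19670, 11480 and 11970 on WT and 4552, 1948 and 22710 on KO (-1.25), and Ndufa9 at 1426, 4671 and 14530 on WT and 2875, 1605 and 1722 on KO (-1.20). The groups overlapped in each of the 3 genes, with WT replicate 1 low for Ndufa8 and Ndufa9 and Trim9 KO replicate 3 the highest array for Ndufs5. The core subunits lay on both sides of 0. Those that bind and oxidize NADH were at 0.45 for Ndufv1, which holds the flavin, 1.00 for Ndufv2 and -0.60 for Ndufs1. Of the core subunits of the arm that reduces ubiquinone, Ndufs3 was at -1.16, with 316.1 on Trim9 KO replicate 1 and 1991 to 11850 elsewhere, and Ndufs8 at 0.75, where its other 5 probe sets ran from -1.81 to 0.86. Ndufa4, first described in complex I and later placed with complex IV, was at -0.59 and its hypoxia-induced paralogue Ndufa4l2 at 0.93.

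Complex II had 4 genes and a median of 0.30, with 1 at a lower mean and 3 at a higher one. Sdha, the flavoprotein that oxidizes succinate, had intensities of 79130, 16850 and 18740 on WT and 20280, 73850 and 52520 on KO (log2 fold change 0.55, standard error 1.04). Sdhb, the iron-sulphur subunit, was the steadiest member of the complex, at 6287, 9610 and 9904 on WT and 11470, 9662 and 5985 on KO (0.05, 95% interval -1.95 to 2.05). Neither membrane anchor differed between genotypes at the threshold. Sdhc was at 255.2, 6738 and 7491 on WT and 6069, 418.5 and 261.8 on KO (-1.41, standard error 1.54). Sdhd was at 5005, 5911 and 853.1 on WT and 16260, 4442 and 2977 on KO (1.02, standard error 1.12). In both genes the groups overlapped, and with each gene's probe sets averaged Sdhc was at -0.31 and Sdhd at -1.34. Sdhc was low on the 3 arrays with Actb ratios of 20.2 or more and high on the others, in both genotypes. The part of the ratio in this split was not tested.

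Complex III had the lowest median of the 5 complexes, -0.65, and 6 of its 9 genes had a lower mean in Trim9 KO. The median was -0.08 without Trim9 KO replicate 1, -0.21 without WT replicate 1 or WT replicate 3 and -1.25 without WT replicate 2. Uqcrfs1, the Rieske iron-sulphur protein that takes electrons from ubiquinol, had intensities of 4489, 8930 and 9724 on WT and 973.7, 1124 and 3371 on KO. Every KO array lay below every WT array, and the log2 fold change was -2.23 (standard error 0.97, 95% interval -4.36 to -0.09, limma's unadjusted p 0.042, adjusted p 0.999). The exact permutation p was 0.1. Leaving out an array gave -2.78 to -1.90 for Uqcrfs1, and it had no other probe set to set beside this one.

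The small subunits of complex III turned on 1 or 2 arrays. Uqcr11 was at 22630, 9080 and 10950 on WT and 528.7, 8315 and 18990 on KO (log2 fold change -1.57, and -0.06 without Trim9 KO replicate 1). Uqcrh, the hinge protein next to cytochrome c1, was at 36580, 20000 and 34760 on WT and 30040, 4475 and 18690 on KO (-1.11, and -0.31 without Trim9 KO replicate 2). Uqcr10 had 629.5 on Trim9 KO replicate 1 and 4657 to 19790 elsewhere (-0.78). At the other end, Uqcrb was at 998500, 2766000 and 133200 on WT and 10500000, 1295000 and 354700 on KO (1.24, and -0.08 without Trim9 KO replicate 1). Uqcrb therefore set most of the summed intensity of complex III on that array, and the deviations used here weight each gene equally. The core proteins Uqcrc1 and Uqcrc2, which face the matrix, were at -0.65 and 1.35. Uqcrc1 had 18460 on WT replicate 3 and 475.1 to 2823 elsewhere, and was at 0.99 without WT replicate 3. Cytochrome c1, Cyc1, was at 0.13, with 4704 on Trim9 KO replicate 1 and 13800 to 92250 elsewhere.

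**Figure D3:**
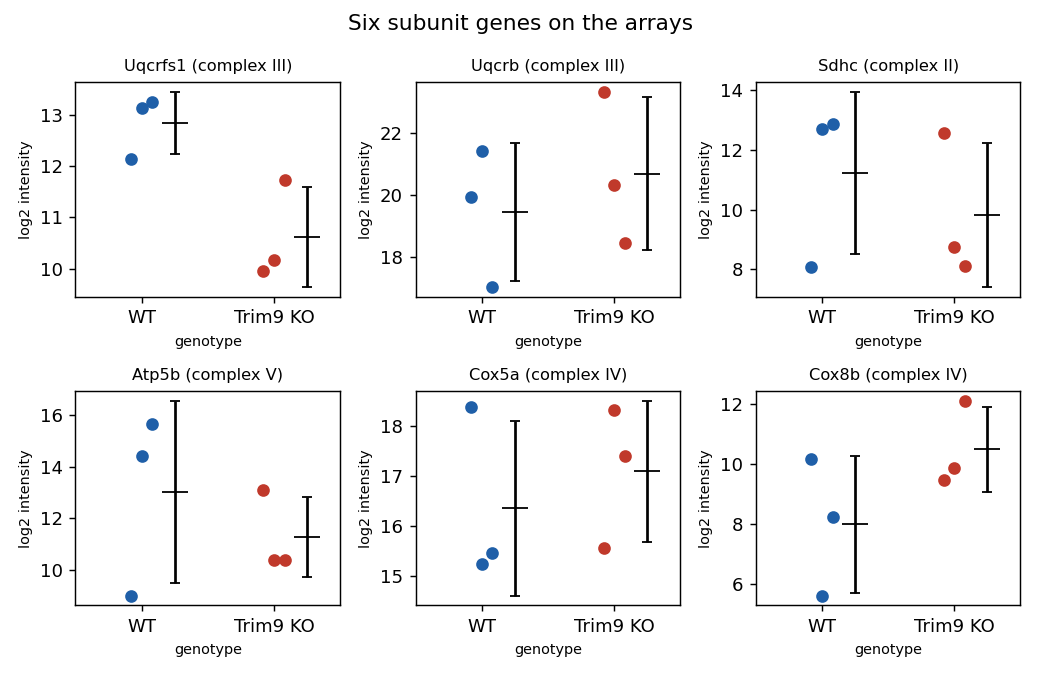
Log2 intensity (y axis, a separate scale in each panel) of 6 subunit genes on the 3 arrays of each genotype (blue points WT, red points Trim9 KO), with the mean (long line) and SD (bars) of each group. Uqcrfs1 is the gene whose groups do not overlap, and Sdhc and Atp5b show a low WT array, replicate 1, beside 2 low KO arrays.

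Complex IV had a median of 0.54, with 13 of 17 genes at a higher mean in Trim9 KO. The median was 0.17 without Trim9 KO replicate 2, 0.19 without WT replicate 3 and 1.02 without WT replicate 1. Most of its widely expressed subunits lay on the positive side. Cox6b1, which faces cytochrome c, was at 239400, 129000 and 34830 on WT and 277600, 348800 and 171700 on KO (log2 fold change 1.32, standard error 1.03), and Cox6c at 318000, 95010 and 49680 on WT and 348100, 412600 and 146400 on KO (1.27). In both genes WT replicate 1 lay among the KO arrays. Cox5a and Cox5b, the subunits on the matrix side, shared a profile. Cox5a was at 340600, 38340 and 44610 on WT and 47980, 330500 and 174000 on KO (0.75), and Cox5b at 415600, 44140 and 45280 on WT and 66190, 343700 and 168200 on KO (0.73). Both were high on the 3 arrays on which Sdhc was low. Leaving out WT replicate 1 gave log2 fold changes of 1.76 and 1.81, and leaving out Trim9 KO replicate 2 gave 0.13 and 0.17. On the lower side were Cox8a (-1.24), with 993.9 on Trim9 KO replicate 1 and 27060 on WT replicate 3, Cox7c (-0.84) and Cox4i1 (-0.22), the common form of a subunit through which ATP regulates the enzyme.

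Several complex IV subunits have tissue isoforms, and 6 of the 7 measured had a higher mean in Trim9 KO (against 55.2% of all genes), none past the threshold. Cox8b, a heart and muscle isoform, had the highest log2 fold change of all members, 2.48 (standard error 1.28, limma's unadjusted p 0.078), at 1118, 32.86 and 280.5 on WT and 687.7, 920.4 and 4350 on KO. WT replicate 1 lay above 2 KO arrays. The other heart and muscle isoforms were at -0.02 for Cox6a2 and 0.50 for Cox7a1. Striated muscle markers, a check for eye muscle in the dissection, had a higher mean for 9 of 11 (median 0.80) and summed to 4264 to 6483 on WT and 6673 to 10900 on KO. By array their mean deviation was -0.75, -0.20 and -0.21 on WT and 1.20, 0.72 and -0.76 on KO. The genotypes thus overlapped, and the value of -0.76 stood on Trim9 KO replicate 3, the highest array for Cox8b. No marker was listed at 0, the muscle creatine kinase Ckm was at -1.06 and the skeletal actin Acta1 at 2.26, and the part of muscle RNA in the Cox8b value was not tested. Of isoforms best known from testis, Cox6b2 was at 0.62, Cox7b2 at 0.39 and Cox8c at 0.51, and the Cox4i2 form of lung and hypoxic cells was at 0.56. Cox6b2 was at -0.74 without WT replicate 1, Cox7b2 at -0.03 without WT replicate 3 and Cox4i2 at -0.07 without Trim9 KO replicate 1. Cox7a1, Cox8b and Cox8c stayed positive whichever array was left out. Cox7b2 was dimmer than the median probe set. Among the common forms Cox6a1 was at 0.91, Cox7a2 at 0.14 and Cox7a2l, which helps join complexes III and IV, at 0.54. Cox7b was not analysed here.

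Complex V had 9 genes at a lower and 8 at a higher mean in Trim9 KO, with a median of -0.07. Leaving out WT replicate 1 gave a median of 0.62, and leaving out Trim9 KO replicate 1 gave 0.59. In the catalytic head, Atp5b, the beta subunit that makes ATP, had intensities of 495.1, 21680 and 51060 on WT and 8620, 1328 and 1325 on KO (log2 fold change -1.73, standard error 1.60), while its partner alpha, Atp5a1, was at 142600, 26960 and 35570 on WT and 38520, 92620 and 94370 on KO (0.43). WT replicate 1 was thus the lowest array for Atp5b and, on the brightest probe set, the highest for Atp5a1. This contrast depended on the probe set. Another of the 3 Atp5a1 probe sets was at -1.29, with 4072, 13620 and 20620 on WT and 5897, 3774 and 3513 on KO. The remaining Atp5a1 probe set was at 0.70. The rotor subunit gamma, Atp5c1, was at -0.60, and delta, Atp5d, at 145800, 19830 and 20190 on WT and 76710, 106100 and 77460 on KO (1.14). Atp5d had the highest log2 fold change of complex V, but its other probe set was at -0.97.

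The genes for subunit c, whose ring turns as protons pass, encode the same mature protein. They gave different readings. Atp5g2 was at 1440, 16760 and 17430 on WT and 12070, 1349 and 459.5 on KO (log2 fold change -1.92, standard error 1.40), Atp5g1 at 715.0, 3854 and 10810 on WT and 1641, 1701 and 2349 on KO (-0.73), and Atp5g3 at 551100, 79540 and 78190 on WT and 85340, 445200 and 164200 on KO (0.29). WT replicate 1 was low for Atp5g1 and Atp5g2 and high for Atp5g3. The other Atp5g2 probe sets, both dimmer, were at 0.13 and 0.47, and the other of Atp5g1 was at -0.998. Among stator and membrane subunits, Atp5h was at 0.89 and Atp5md, a small subunit that helps ATP synthase pair up, at 0.92. The remaining genes of the complex lay between -0.59 for Atp5e and 0.73 for Atp5pb.

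**Figure D4:**
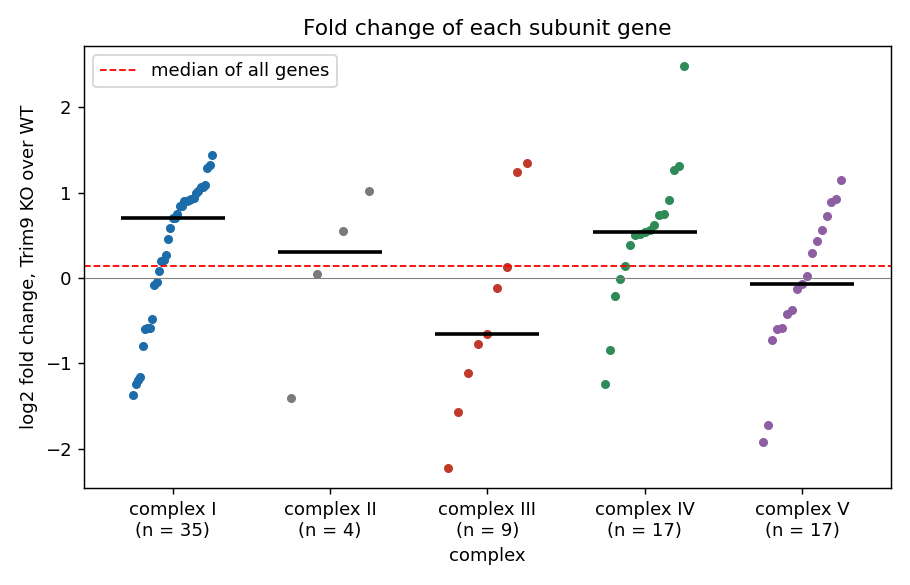
Each point is a subunit gene, placed by its log2 fold change in Trim9 KO against WT (y axis) and its complex (x axis), with the complex median (black lines) and the median of all genes (dashed red, 0.14). Medians run from -0.65 in complex III to 0.70 in complex I, and every complex holds genes on both sides of 0.

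The complexes were then set against each other on the same array, which removes any shift that an array gives to all members alike. For each of the 10 pairs of complexes, the mean deviation of 1 complex was subtracted from that of the other. For 5 of the 10 pairs the genotypes did not overlap. Complex III minus complex I was 0.14, 0.25 and 0.73 on the WT arrays and -0.61, -0.43 and -0.07 on the KO arrays, a difference of -0.74 on the log2 scale. Complex IV minus complex III was -0.02, -0.25 and -1.10 on WT and 0.62, 0.69 and 0.05 on KO, a difference of 0.91. On this scale complex III, relative to complexes I and IV, was lower on each KO array than on any WT array. The other pairs were complex V minus I (-0.42), V minus III (0.32) and V minus IV (-0.59). Some of these were close to overlap. Complex V minus III was -0.0196 on WT replicate 1 and -0.0067 on Trim9 KO replicate 3. Complex V minus IV was -0.003 and -0.062 on the same arrays. The 10 differences are made from 5 profiles and are not independent, and they are given as descriptions without a test. They depended on the summary. After quantile normalization 2 pairs did not overlap, complex IV minus III and V minus I, whereas complex III minus I overlapped (0.27, -0.0042 and 0.85 on WT, and -1.13, -0.15 and 0.17 on KO). When the median of a complex replaced the mean, an alternative chosen after seeing the data, 1 pair did not overlap, complex V minus I, and both complex III minus I and IV minus III did. With each gene's probe sets averaged 4 pairs did not overlap, complex III minus I, IV minus I, IV minus III and V minus IV. Complex V minus I then overlapped (-0.01, 0.22 and 0.03 on WT, and 0.15, -0.28 and -0.11 on KO). No pair stayed apart in every setting. Without 1 array, with other pseudocounts, with equal medians, without dim probe sets, with averaged probe sets and in these alternatives, complex III minus I ranged from -0.89 to -0.50 and complex IV minus III from 0.59 to 1.13.

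Different probe sets for the same subunit often gave different directions. Of the 48 members with several probe sets, 38 had some on each side of 0 (79.2%, against 62.4% of 9010 genes with several), 5 (Atp5k, Cox6b1, Cox8c, Ndufb7 and Ndufb8) had all at a higher mean and 5 (Atp5g1, Atp5o, Cox8a, Ndufa3 and Uqcrh) all at a lower one. The brightest probe set was at a higher mean and the next at a lower one in 19 of the 48 (39.6%, against 24.1% of all genes with several), and the reverse held in 9 (18.8%, against 23.4%). The median log2 fold change was 0.64 for the brightest and -0.27 for the next, where over all genes they were 0.10 and 0.09. The direction of the member list thus rested on which probe set was read, and with each gene's probe sets averaged the median of the members was 0.002 and that of complex I -0.014.

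The distance between the highest and the lowest log2 fold change of a gene's probe sets was over 2 in 17 of the 48 members (35.4%, against 33.7% of all genes with several). It was widest in 5 genes, a choice made after their values were seen. For Sdhd it was 4.74, with 1.02 on the brightest probe set and -3.71 on the other (429.7, 2063 and 5948 on WT and 86.63, 65.56 and 277.6 on KO, limma's unadjusted p 0.0079). For Sdha it was 3.24, from -0.33 to 2.90 on a dim probe set (71.31, 30.48 and 44.51 on WT and 3235, 185.6 and 141.2 on KO) around 0.55 on the brightest. For Ndufs4 it was 3.12, from -1.83 (2873, 2349 and 1683 on WT and 59.33, 1103 and 3069 on KO) to 1.29 on the brightest. The KO arrays of these other probe sets lay below the WT arrays in Sdhd and above them in Sdha, and overlapped them in Ndufs4. For Ndufv2 the brightest was at 1.00 and another at -1.87, with 11590, 18320 and 21210 on WT and 6131, 2482 and 6002 on KO. For Uqcrc2 the brightest was at 1.35 and the other at -1.52, with 6592, 10760 and 16110 on WT and 1247, 6020 and 6336 on KO. In both the KO arrays of the other probe set lay under all its WT arrays while those of the brightest overlapped. Over all 165 probe sets of members 3 had an unadjusted p under 0.05 (against 2.88% of all probe sets), 5 had their KO arrays all below the WT arrays (against 2.76%) and 3 all above (against 5.16%). These counts were near or under the share over all probe sets. The kind of probe set differed in direction as well, among the members and over all genes. A higher mean was seen in 22 of 30 members read by a probe set that matches several transcripts of 1 gene (named with a_at, median 0.87, against 0.08 over all genes so read) and in 7 of 10 read by one that may match other genes (x_at, 70.0% with a median of 0.65, against 80.9% and 0.75 over all genes). It was seen in 7 of 13 read by an s_at probe set (53.8%, against 56.1%) and in 15 of 29 read by a plain one (at, 51.7%, against 53.8%). What part the probe position or RNA length had in this was not tested.

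**Figure D5:**
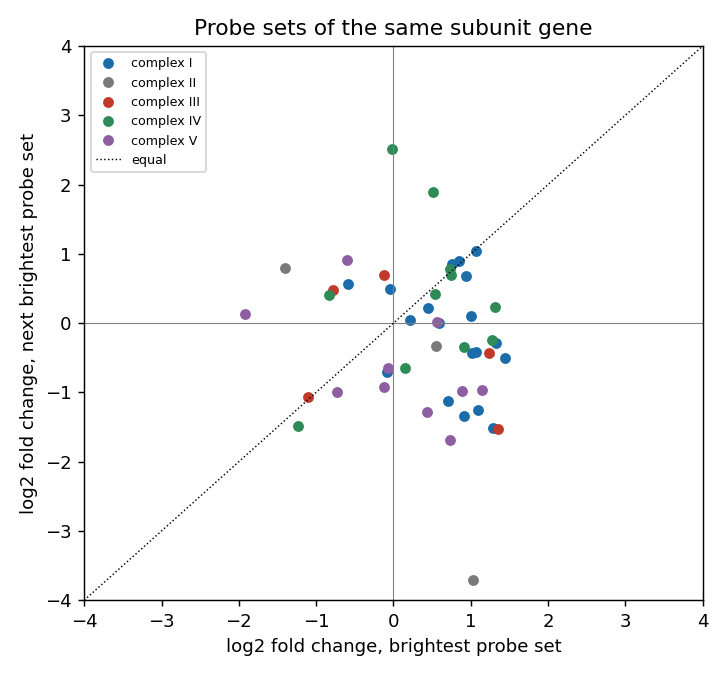
Log2 fold change, Trim9 KO over WT, of the brightest probe set (x axis) against the next brightest (y axis) for the 48 subunit genes with several, coloured by complex, with the line of equal values dotted. Of the 48 genes, 34 lie below the dotted line, and Sdhd lies lowest (1.02 against -3.71).

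Genes for proteins that build the complexes had lower means more often than not. Of 46 measured assembly factors 31 had a lower mean in Trim9 KO (median -0.41), where 44.8% of all genes did. In 5 the KO arrays all lay below the WT arrays (against 2.89% of all genes), while in 1, Sdhaf3, they lay above (against 5.35%). The list's mean deviation was 0.19, -0.01 and 0.33 on WT and -0.48, -0.02 and -0.01 on KO, so that the genotypes overlapped and the low value stood on Trim9 KO replicate 1, the array apart from the others. Lowest was Ndufaf7, a methyltransferase that acts during assembly of complex I, at log2 intensities of 9.18, 10.6 and 10.5 on WT and 7.09, 7.70 and 8.32 on KO (log2 fold change -2.36, standard error 0.95, limma's unadjusted p 0.030). The others were the complex III factors Uqcc3 (-1.57) and Uqcc1 (-1.41) and the complex I factors Ndufaf1 (-0.95) and Acad9 (-0.33). The ends of the list also held Ndufaf5 (-1.75), Coa6 (1.38) and the haem A synthase Cox15 (1.36). Both Uqcc genes help to make cytochrome b, the mitochondrially encoded core of complex III.

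Of 22 regulators of mitochondrial gene expression 18 had a lower mean (median -0.63), where 44.8% of all genes did. Tfam, which packs and transcribes mitochondrial DNA, was at log2 intensities of 11.7, 11.8 and 11.7 on WT and 10.1, 10.1 and 11.2 on KO (log2 fold change -1.25, standard error 0.91), and the elongation factor Tefm was at -1.71. For both the genotypes did not overlap, 2 of 22 genes with KO arrays below all WT arrays (against 2.89% of all genes). The receptor Esrrg (-2.21) and the mitochondrial helicase Twnk (-1.84) were lowest in the list, with Trim9 KO replicate 1 their lowest array, and Tfb1m (0.50) and Esrrb (0.30) were highest. The list's mean deviation was -0.85 on Trim9 KO replicate 1, -0.15 and 0.01 on the other KO arrays and 0.27 to 0.37 on WT. After quantile normalization these were -1.12, -0.10 and 0.23 on KO and 0.18 to 0.56 on WT, so that the genotypes overlapped.

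Other mitochondrial and energy genes were split. Of 33 carriers, pores and import factors 18 had a lower mean (median -0.23, with list deviations of -0.68 on Trim9 KO replicate 1, 0.10 and 0.01 on the other KO arrays and 0.07 to 0.32 on WT), with the import channel subunit Timm17a at -2.59 (limma's unadjusted p 0.039), Timm8b at -2.28, Immt at -1.45 and Timm10 at -0.45, and with Phb2 (1.09) and Timm50 (1.51) higher. Of 17 TCA cycle enzymes and their feeder complex 9 had a lower mean (median -0.24). Dld, the subunit shared by the pyruvate and oxoglutarate dehydrogenases, was at log2 intensities of 10.4, 11.8 and 12.3 on WT and 6.92, 7.98 and 9.63 on KO (log2 fold change -3.33, standard error 1.06, limma's unadjusted p 0.009), and the oxoglutarate dehydrogenase subunit Dlst was at -2.06, Pdha1 at -1.51 and Idh3a at -1.10. In these 4 of 17 the KO arrays lay under the WT arrays (against 2.89% of all genes), while Idh3g (1.31) and Pdhx (0.93) were highest. Of 14 glycolytic enzymes 10 had a lower mean (median -0.48), from Pkm (-2.27) and Pfkl (-1.54) to Pgk1 (0.73) and Ldhb (1.44). Of 76 mitochondrial ribosome proteins 49 had a lower mean (median -0.34, with list deviations of -0.39 on Trim9 KO replicate 1, -0.02 and -0.07 on the other KO arrays and -0.03 to 0.34 on WT), from Mrpl12 (-3.11) and Mrpl45 (-3.10) to Mrpl39 (1.47) and Mrpl44 (1.51). In Mrpl44 and Mrpl28 (1.22), 2 of the 76, the KO arrays lay above the WT arrays (against 5.35% of all genes). No gene of these lists had an adjusted p under 0.05, and no test set the lists against the subunits.

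Markers of cell types that differ in mitochondrial content also differed between arrays. Medians were -0.43 for rods (13 of 18 lower), -0.70 for cones (7 of 11 lower), -0.67 for Müller glia (10 of 12 lower) and -0.42 for retinal ganglion cells (6 of 11 lower). Of all genes 44.8% were lower. Müller glia markers had mean deviations of 0.04, 0.31 and 0.73 on WT and -0.49, -0.42 and -0.18 on KO. For this list the genotypes did not overlap, also after quantile normalization (-0.02, 0.44 and 1.03 on WT, and -0.74, -0.58 and -0.13 on KO). For the rod, cone and ganglion cell lists they overlapped. Pigment epithelium markers, from the layer that adheres to the retina in dissection, had a higher mean for 10 of 10 (median 1.10), and summed to 80590 to 496800 on WT and 466000 to 1380000 on KO. The pigment marker Mlana (2.59, limma's unadjusted p 0.023) and the ganglion cell marker Pou4f1 (1.73) had KO arrays above all WT arrays (against 5.35% of all genes). The ganglion cell marker Nefm (-3.55, limma's unadjusted p 0.012) had them below (against 2.89%). Microglia markers summed to 12790 to 35270 on WT and 40510 to 44540 on KO, with a median of 0.07 and 4 of 8 lower. They ran from -1.525 for C1qc to 1.534 for Csf1r. Their mean deviation was -0.33, 0.12 and 0.14 on WT and -0.63, 0.78 and -0.09 on KO, so that the genotypes overlapped. The 3 blood markers summed to 219.9 to 1321 on WT and 657.5 to 1949 on KO, with a median of 0.87. By array, pigment epithelium markers were at -0.25, -0.92 and -0.69 on WT and 0.99, -0.35 and 1.21 on KO, beside 0.44, -0.38 and -0.34 on WT and -0.26, 0.39 and 0.14 on KO for the members. The part of other cells in the subunit values was not tested.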

How the data were processed

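Retinal RNA of adult littermates, 3 WT and 3 Trim9 KO, was measured on Affymetrix arrays, 1 per sample. The deposited values are linear intensities, which the authors had scaled to a trimmed mean over probe sets (2% left out at each end) of 1500 per array. MAS5 is named in the submitters' processing notes and RMA in the study's methods, but these values have neither the log2 scale nor the equal medians of RMA. The number of arrays limits the precision. The 64 control probe sets were left out. Values were taken as log2(intensity + 16), which understates differences of dim genes, and 45037 probe sets were fitted with limma 3.58.1 (lmFit and eBayes, R 4.3.3), with p-values adjusted by Benjamini-Hochberg at a threshold of 0.05. The 932 probe sets naming several genes were assigned to none. Exact permutation tests were two-sided.

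The genes, lists and tests were chosen with earlier results of these data known. Named are, in each complex, the 3 members at either end of the log2 fold changes, members without overlap or with an unadjusted p under 0.05, core subunits and isoform sets. Genes without overlap are named for each list, and the ends for the mitochondrial and energy lists. The ends of the cell type lists are named only in part. Lists covered assembly factors, regulators, carriers and import, the TCA cycle, glycolysis, mitochondrial ribosomes and cell type markers. The fit was tested on simulated data. The alternatives were quantile normalization, equal medians, leaving out dim probe sets, the replicate number as a block, limma's trend with a robust prior, array weights, averaging all probe sets of a gene, pseudocounts of 1 and 64, and dropping each array in turn. Figures were drawn with Python 3.11.15, pandas 2.3.3 and matplotlib 3.10.9.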

Additional observations from a re-analysis of the deposited data

How the results depend on the processing

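No member passed the adjusted threshold under any alternative (limma, lowest adjusted p of any probe set 0.61, with array weights). The median of all members stayed positive, from 0.002 with a gene's probe sets averaged to 0.78 without WT replicate 1. It was not always above the median of all genes. With probe sets averaged the median of all genes was 0.12. Without WT replicate 2 it was 0.25, against 0.15 for the members. The median of all genes moved from 0.14 to 0.03 after quantile normalization and to -0.19 with equal medians, where 42 members were higher and 40 lower. With a gene's probe sets averaged the complex I median was -0.014, 1 member lay above and 2 below all WT arrays (4.91% and 2.67% of all genes). After quantile normalization 5 members lay above all WT arrays (5.43% of all genes), and 2 complex pairs did not overlap, against 1 pair with the median of members. Members with an unadjusted p under 0.05 numbered 0 with the replicate block and with a pseudocount of 1, and 7 (6 lower, 1 higher) with array weights. Leaving out 1 array gave complex V medians of -0.30 to 0.62, 0 to 31 members above all WT arrays (31 without WT replicate 1, where 12.3% of all genes did so), 2 to 7 below (7 without WT replicate 1, where 10.8% of all genes did so) and 0 to 3 with an unadjusted p under 0.05. The complex II median was -0.02 with equal medians. Of the 50 named members 33 kept their sign whichever array was left out and 25 in every setting. Whether the replicate numbers mark littermate pairs was not known. Deviations from each genotype's own mean, over the probe sets, correlated at -0.23, -0.08 and 0.03 between arrays of the same number. Between arrays of different numbers they correlated at -0.29 to 0.28. With 3 arrays per genotype these values cannot show whether the samples were paired. The replicate block left every fold change as it was, which the balanced design fixes in advance. The cause of the changes between settings was not tested.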
